A study of Homo sapiens with 4 samples.

Results

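The genes described here are 9 loci that are recurrently altered in gliomas, namely CDKN2A, CDKN2B, MTAP, RB1, NF1, TERT, ATRX, MGMT and IDH1. They were taken by their gene names from the 58735 genes of the deposited tables, 19951 of which are protein-coding, and all 9 were present. RNA was sequenced from U251 and U87, established human glioblastoma (GBM) cell lines, each as Control and after 48 h of Bru. Bru is brusatol, a plant compound used here as an anti-tumor agent, and was given at the inhibitory concentration that the study names IC50. The dose in each line is not given for the sequenced cells. In the study's viability time courses it was higher in U251 than in U87, so that equal doses cannot be assumed. Each condition had 1 library, so that 4 libraries were compared and no difference had a replicate check. Bru was dissolved in DMSO, and Control cells received DMSO alone in other assays of the study, while for the sequenced cells this is not given in the sources used here. Levels are FPKM, a unit that divides the fragments of a gene by its length and by a library size. The fragments themselves, called reads, were recovered from the FPKM, and the libraries held between 17083896 and 21453561 of them. The library size inside the FPKM was 0.978 and 1.04 times these reads in Control and Bru of U251. In Control and Bru of U87 it was 0.990 and 1.02 times these reads. A count of 3 reads was taken as the floor of what this depth can show. Intervals are exact, at a level of 95%, and speak of counting error alone, as no molecular identifiers were used.

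The products of CDKN2A (INK4A and ARF) and of CDKN2B hold back the cyclin D kinases and protect the p53 protein, and RB1 is the brake those kinases release when a cell enters S phase. NF1 switches off RAS, TERT extends telomeres, ATRX places a histone variant at repeats and telomeres, MGMT removes alkyl groups from guanine, and IDH1 makes 2-oxoglutarate and NADPH in the cytosol. MTAP, an enzyme of methionine salvage, lies next to CDKN2A and is often lost with it in GBM.

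Of the 9 genes, 6 had more than 3 reads in at least 1 library, and CDKN2A, CDKN2B and MGMT had 0 reads in all 4. Among the 19864 protein-coding genes of the autosomes and chromosome X, 14.8% had 0 reads in every library. The promoter windows of CDKN2A and MGMT are shown for their CG pairs, since promoter methylation of these loci is studied in glioma. TERT is set beside them because it had reads in every library, though few. The windows hold the 250 bases before the annotated starts (RefSeq, GRCh38.p14), read 5′ to 3′ on the gene's own strand. Of the 9 genes, 8 have such a window, and ATRX is named only. The RB1 window (chr13:48476200-48476449) lies inside the gene, so that the bases before its first start are not covered. Capitals mark CG pairs in the first pair of sequences. In the TERT sequence they mark GGAA and TTCC, the same motif read on either strand, whose copies do not overlap.
CDKN2A INK4A start, chr9:21974858-21975107, minus strand: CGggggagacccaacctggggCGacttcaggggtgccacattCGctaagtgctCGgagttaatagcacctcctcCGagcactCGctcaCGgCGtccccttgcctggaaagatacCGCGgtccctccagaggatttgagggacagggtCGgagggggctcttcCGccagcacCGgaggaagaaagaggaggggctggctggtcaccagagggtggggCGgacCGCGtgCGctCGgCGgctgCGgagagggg
MGMT start, chr10:129466991-129467240, plus strand: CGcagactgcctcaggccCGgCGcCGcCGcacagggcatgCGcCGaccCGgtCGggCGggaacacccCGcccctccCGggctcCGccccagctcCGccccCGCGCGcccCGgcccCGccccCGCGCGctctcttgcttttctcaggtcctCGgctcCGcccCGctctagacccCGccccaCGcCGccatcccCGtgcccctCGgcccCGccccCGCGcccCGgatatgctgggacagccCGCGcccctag
TERT start, chr5:1295069-1295318, minus strand: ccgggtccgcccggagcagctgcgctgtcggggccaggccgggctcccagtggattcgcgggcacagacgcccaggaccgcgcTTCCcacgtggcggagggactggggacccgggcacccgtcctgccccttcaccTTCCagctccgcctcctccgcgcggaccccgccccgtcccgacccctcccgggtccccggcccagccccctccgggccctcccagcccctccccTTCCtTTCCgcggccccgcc

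The MGMT window held 36 CG pairs, a number that 4.85% of the 35116 windows of all genes reached, where the median was 11. The window before the INK4A start of CDKN2A held 20 CG pairs, reached by 32.4% of all windows. The window before the other start of CDKN2A, that of ARF (chr9:21995325-21995574, minus strand), held 24, reached by 23.7%. The TERT window held 28 CG pairs and 4 copies of GGAA or TTCC, and 34.3% of all windows held as many copies. The windows are reference sequence, and the promoter sequence of the lines was not read. DNA methylation and DNA copy number were not measured in these libraries.

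The 3 genes on the short arm of chromosome 9 differed between the lines in MTAP. MTAP (ENSG00000099810, chr9:21802543-21937651, plus strand, 14 merged exons) was expressed in U251, at an FPKM of 13.9 in Control (4249 reads) and 12.9 in Bru (3508 reads). In U87 it had 0 reads in both libraries, where 3 reads would have been an FPKM of 0.0114 in Control and 0.0118 in Bru. The level of MTAP in U251 was 1220-fold that of 3 reads in U87 in the Control libraries and 1098-fold in the Bru libraries. These folds are not lower limits, since the 95% interval at 0 reads in U87 reached an FPKM of 0.0140 and 0.0145. Of the exon bases of MTAP, 90.4% belong to no other annotated gene.

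CDKN2A (ENSG00000147889, chr9:21967753-21995301, minus strand, 10 merged exons) had 0 reads in U251 and in U87, with and without Bru. At these depths and its length of 4329 bases, 3 reads would have been an FPKM of 0.0330 to 0.0398. The 95% interval at 0 reads reached up to an FPKM of 0.0406 to 0.0490, so that a level under that limit could have gone unseen in a library. CDKN2B (ENSG00000147883, chr9:22002903-22009363, minus strand, 2 merged exons) also had 0 reads in all 4 libraries, with a floor of 0.0352 to 0.0425. The kit does not mark strand, and reads of a gene and its antisense partner could not have been told apart. Both antisense genes of the locus, CDKN2A-DT and CDKN2B-AS1, were at 0 reads in every library as well. MTAP was thus read in U251 while CDKN2A and CDKN2B were not.

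The region was followed outward from CDKN2A to the nearest genes with an FPKM of at least 1 in all 4 libraries. These were RPS6, a ribosomal protein gene with an FPKM of 525, 955, 231 and 291 (Control and Bru of U251, then of U87), and CAAP1, with 19.1, 17.8, 4.99 and 4.42. They lie 7.46 Mb apart with 30 protein-coding genes between them. In U251, 20 of these 30 genes had at most 3 reads in both libraries, and in U87 26 had. Over all protein-coding genes the shares were 29.6% in U251 and 29.4% in U87. By the choice of the end genes, no gene between them had an FPKM of at least 1 in all 4 libraries. A high share of low genes was thus partly set in advance, and the genome shares are not a like comparison. At the other end of the scale, 6 of the 30 genes had an FPKM of at least 1 in both U251 libraries, against 1 in both U87 libraries.

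In U87, 25 protein-coding genes in a row, from MLLT3 to DMRTA1, had 0 reads in both libraries. They span chr9:20341665-22455740, or 2.11 Mb. Type I interferon genes, which are mostly silent in resting cells, made up 16 of the 25. Most of the 16 are IFNA genes, near-identical copies whose reads can be lost in counting, while IFNB1, IFNW1 and IFNE are not. The genes other than interferon genes carry most of the difference between the lines, since 5 of the 25 were expressed in both U251 libraries (FPKM of at least 1). MLLT3, which encodes a reader of histone acylation, had an FPKM of 4.08 and 3.22 in U251 Control and Bru. FOCAD, a gene for a focal adhesion protein, had 10.1 and 7.66. KLHL9, an adaptor of a ubiquitin ligase, had 19.96 and 18.9. DMRTA1, of the DMRT family of transcription factors, had 5.21 and 5.25 and lies beyond CDKN2B, and MTAP is the fifth gene. Against the level of 3 reads in U87 Control, U251 Control was 200-fold higher for MLLT3, 609-fold for FOCAD, 687-fold for KLHL9 and 175-fold for DMRTA1. HACD4 and IFNE had few reads in U251, with 20 and 24 for HACD4 and 14 and 30 for IFNE in Control and Bru.

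From MLLT3 to DMRTA1 the annotation also holds 39 genes that are not protein-coding. Of these, 14 had a read in U251, adding up to 523 reads in Control and 386 in Bru, and 0 had a read in U87. MIR31HG, the host transcript of a microRNA, had 65 and 107 reads in U251 Control and Bru and 0 in both U87 libraries. Beyond DMRTA1, the noncoding LINC01239 had 143 and 128 reads in U251 and 0 in both U87 libraries. On the side of lower coordinates, the first protein-coding gene with reads in U87 was SLC24A2, with 165 and 142 reads in Control and Bru, against 0 and 3 in U251. On the other side it was ELAVL2, with 22 and 27 reads in U87 and 249 and 161 in U251. Between genes with at least 1 read, the stretch of U87 without any ran for 2780 kb, and the gene at its far end, CLIC4P1, is a processed pseudogene whose parent CLIC4 had 5940 to 15823 reads, so that its 6 and 11 reads in U87 are uncertain.

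The corresponding stretch in U251 was shorter. Without any read it ran for 266 kb, from the end of MTAP to AL157937.1, a noncoding gene with 147 reads in Control and 66 in Bru. It held 8 annotated genes, and its 2 protein-coding genes were CDKN2A and CDKN2B. AL359922.1, a readthrough gene that starts with MTAP and ends beyond CDKN2B, also had 0 reads in all 4 libraries. It shares exon bases with MTAP, and how reads in shared bases were counted is not given in the sources used here. Its count of 0 in U251 is therefore uncertain. TUSC1 had the opposite pattern to the genes around CDKN2A, with 0 reads in both U251 libraries and an FPKM of 12.1 and 10.1 in U87 Control and Bru (449 and 359 reads). Whether the genes without reads are absent from the genome or present and silent cannot be told apart in RNA counts.

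The other loci were read the same way, through the 10 nearest protein-coding genes on each side. Of the 20 neighbours of CDKN2A, 9 had at most 3 reads in all 4 libraries, as had 9 of those of CDKN2B and 11 of those of MTAP. The share over all protein-coding genes was 24.6%. The neighbours of these 3 genes are largely the same genes. The 9 low neighbours of CDKN2A were mostly interferon genes, namely IFNA1, IFNA2, IFNA5, IFNA6, IFNA8 and IFNA13, the near-identical copies described above. Around RB1 and NF1, 2 of 20 neighbours were at or under 3 reads, around MGMT 4, around ATRX 5, and around TERT and IDH1 7 each. Counted in U87 alone, the number was 14 for CDKN2A, and it was 10 or fewer for each of the 6 genes on other chromosomes. The order depended on the window. With 5 genes on each side, 4 of the 10 neighbours of CDKN2A were at or under 3 reads in all 4 libraries. The number was 3 for CDKN2B, 7 for MTAP and 6 for IDH1.

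RB1 (ENSG00000139687, chr13:48303726-48599436, plus strand, 30 merged exons) was expressed in every library. In U251 its FPKM was 21.3 in Control (2884 reads) and 18.1 in Bru (2169 reads), and in U87 it was 7.86 in Control (916 reads) and 7.73 in Bru (868 reads). Both U87 libraries lay below both U251 libraries. The log2 ratio of U87 to U251, computed on FPKM + 0.1, was -1.43 in Control (interval of the ratio without the added 0.1 from -1.55 to -1.33) and -1.22 in Bru (from -1.35 to -1.12). Without the added 0.1, its level was 2.71-fold and 2.35-fold lower in U87. ITM2B, the nearest gene before RB1 expressed in all libraries, was also lower in U87, with an FPKM of 37.5 and 21.5 in U251 Control and Bru and 15.8 and 9.79 in U87. LPAR6, which lies inside RB1, had 265 and 116 reads in U251 and 15 and 13 in U87.

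NF1 (ENSG00000196712, chr17:31094927-31382116, plus strand, 62 merged exons) was the gene with the lowest level per length among the 5 that passed the filter used for ratios, a mean FPKM of at least 1. In U251 its FPKM was 1.86 in Control (1057 reads) and 2.11 in Bru (1060 reads), and in U87 it was 3.3 in Control (1618 reads) and 3.28 in Bru (1548 reads). Its level was 1.78-fold higher in U87 than in U251 in Control and 1.55-fold higher in Bru, with intervals of the log2 ratio from 0.72 to 0.94 and from 0.52 to 0.75. The 12 annotated pseudogenes of NF1 held at most 1 read in sum in any library. EVI2B, which lies within NF1, was higher in U87 as well, with an FPKM of 1.01 and 1.95 in U251 Control and Bru and 5.98 and 7.60 in U87.

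TERT (ENSG00000164362, chr5:1253147-1295069, minus strand, 16 merged exons), the catalytic subunit of telomerase, was detected in every library at a low level. Its reads numbered 68 and 52 in Control and Bru of U251, and 69 and 67 in those of U87. The intervals of its FPKM ran from 0.547 to 0.893 and from 0.455 to 0.80 in U251, and from 0.646 to 1.05 and from 0.648 to 1.06 in U87. All 4 intervals overlap, and at this depth no difference between the libraries could be seen. The log2 ratio of U87 to U251 was 0.21 in Control (interval from -0.27 to 0.74) and 0.40 in Bru (from -0.09 to 1.01). With a mean FPKM of 0.745, TERT did not pass the filter used for ratios. CLPTM1L, its nearest expressed neighbour on one side, had an FPKM of 27.2, 21.8, 20.8 and 18.6, and TRIP13, on the other side, had 24.5, 15.6, 24.3 and 20.9.

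ATRX (ENSG00000085224, chrX:77504878-77786233, minus strand, 40 merged exons), a chromatin remodeler whose loss accompanies telomere lengthening without telomerase, was read in all libraries. In U251 its FPKM was 9.79 in Control (3957 reads) and 9.63 in Bru (3439 reads), and in U87 it was 5.21 in Control (1814 reads) and 5.03 in Bru (1688 reads). The U87 libraries were lower by 1.88-fold in Control and 1.91-fold in Bru, with intervals of the log2 ratio from -0.99 to -0.83 and from -1.02 to -0.85. Converted to TPM, the Bru value was -1.03, just past 2-fold.

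MGMT (ENSG00000170430, chr10:129467184-129768007, plus strand, 9 merged exons) had 0 reads in all 4 libraries, with a floor of 3 reads at an FPKM of 0.0402 to 0.0485. Both expressed genes and genes near 0 lay around it. The nearest expressed gene before it was MKI67, a proliferation marker, with an FPKM of 47.3, 21.8, 45.1 and 41.6. The nearest after it was GLRX3, with 13.8, 21.1, 45.8 and 48.3. The next gene after MGMT, the transcription factor gene EBF3, was near 0 too, with 0, 0, 3 and 1 reads. On the other side, FOXI2 had 0 reads in all 4 libraries and CLRN3 at most 3, and farther out TCERG1L had 0 reads in U251 and 13 and 24 in U87. Of the 10 nearest genes, 5 on each side, 4 had at most 3 reads in all libraries, or 40%, against 20% of the 20 nearest.

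IDH1 (ENSG00000138413, chr2:208236227-208266074, minus strand, 13 merged exons) had the highest mean level per length of the 9 genes. In U251 its FPKM was 21.2 in Control (2104 reads) and 16.2 in Bru (1414 reads), and in U87 it was 34.8 in Control (2966 reads) and 23.8 in Bru (1952 reads). Both U87 libraries lay above both U251 libraries, by 1.64-fold in Control and 1.47-fold in Bru, with intervals of the log2 ratio from 0.63 to 0.79 and from 0.46 to 0.66. Its antisense gene IDH1-AS1 had 4 to 12 reads, and 98.0% of the exon bases of IDH1 are its own.

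Between the lines, 2 of the 5 genes that passed the filter, MTAP and RB1, differed by more than 2-fold in Control, and the same 2 did in Bru. Over the 12949 genes that passed it, the share past 2-fold was 30.4% in Control and 29.2% in Bru. MTAP passed the filter only through U251. Both differences were seen in the pair of Control libraries and in the pair of Bru libraries. No condition of a line was sequenced more than once.

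Between Bru and Control, 0 of the 5 genes that passed the filter differed by more than 2-fold in U251, and 0 of the 4 with reads in U87 did there. Over all 12949 genes, 8.8% were past 2-fold in U251 (435 higher and 705 lower in Bru) and 3.34% in U87 (249 higher and 183 lower). The log2 ratio of Bru to Control had a median of -0.03 over all genes in U251 and -0.04 in U87. CDKN2A, CDKN2B and MGMT have no ratio in either line and MTAP has none in U87, since both libraries were at 0.

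IDH1 had the ratio farthest from 0 among the 9 genes in both lines. Its log2 ratio of Bru to Control was -0.39 in U251 (interval from -0.49 to -0.30) and -0.55 in U87 (from -0.63 to -0.47), or 1.31-fold and 1.46-fold lower in Bru. It stayed below 0 under every scaling and pseudocount tried, from -0.40 to -0.34 in U251 and from -0.55 to -0.40 in U87. RB1 was lower in Bru in U251, with a log2 ratio of -0.23 (interval from -0.31 to -0.15), and stood at -0.02 in U87 (from -0.16 to 0.11). NF1 was at 0.17 in U251 (interval from 0.06 to 0.31) and at -0.01 in U87 (from -0.11 to 0.09). MTAP had a log2 ratio of -0.10 in U251 (interval from -0.16 to -0.03), and of -0.05 with FPKM scaled to their 75th percentile. The interval does not cover the choice of library size, and the sizes used here lower the ratios in U251.

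For ATRX both intervals included 0, with -0.02 in U251 (interval from -0.09 to 0.04) and -0.05 in U87 (from -0.15 to 0.05). For TERT the intervals were wide, from -0.76 to 0.33 around -0.18 in U251 and from -0.50 to 0.52 around 0.01 in U87. When the FPKM were scaled to their 75th percentile instead, the median of all genes in U87 moved to 0.10, and RB1, NF1 and ATRX stood above 0 there, at 0.13, 0.14 and 0.10. The U87 ratio minus the U251 ratio, without the added 0.1, was 0.21 for RB1, -0.19 for NF1, 0.22 for TERT, -0.03 for ATRX and -0.15 for IDH1. With 1 library per condition, these differences were not tested.

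Genes that work with the 9 loci were read from 7 lists, with 108 genes in all, of which 101 passed the filter. In U251, 8 of the 101 were past 2-fold lower in Bru and 0 higher. In U87, 0 were past 2-fold in either direction. The shares over all genes are those given above, and no list was tested against others.

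The list of the RB pathway and G1 control, the kinases, cyclins, inhibitors and E2F factors that act around RB1, held 6 of these 8 genes. All 18 of its 21 genes that passed the filter had a log2 ratio below 0 in U251, with a median of -0.69. For CDK4 and E2F4, both at -0.08, the interval in U251 included 0, and a sign so near 0 can depend on the library size used. In U87 the median was -0.10, with 14 genes below 0 and 4 above. In U251 the FPKM of CCND1 (cyclin D1) was 133 in Control and 44.0 in Bru, a log2 ratio of -1.59, and in U87 it was 153 and 141, a log2 ratio of -0.11. CCNE1 (cyclin E1) had 11.1 and 4.13 in U251, a log2 ratio of -1.40, and 12.0 and 12.3 in U87, a log2 ratio of 0.03. CCNE2 stood at -1.17 in U251 and -0.38 in U87. E2F1, a factor that RB1 binds, had 59.0 and 26.4 in U251, a log2 ratio of -1.16, and 72.6 and 63.1 in U87, a log2 ratio of -0.20.

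Of the 18 genes, 4 lay below 0 in U251 and above 0 in U87, namely CDKN1A, CDK6, CCNE1 and CDK4. For CDK4 the interval included 0 in both lines, from -0.16 to 0.004 in U251 and from -0.06 to 0.07 in U87. For CCNE1 the U87 interval included 0, from -0.14 to 0.20. CDKN1A, the p21 inhibitor of cyclin-dependent kinases and a target of p53, had the widest gap. In U251 its FPKM was 35.6 in Control and 12.7 in Bru, a log2 ratio of -1.48 (interval from -1.61 to -1.36). In U87 it was 83.7 in Control and 132 in Bru, a log2 ratio of 0.66 (interval from 0.60 to 0.71). The sixth gene was E2F2, at -1.14 in U251. CDK4, which CDKN2A holds back, stood at an FPKM of 37.9, 35.9, 63.5 and 63.8, and CDK6 at 20.9, 18.4, 4.69 and 6.06, log2 ratios of -0.18 in U251 (interval from -0.24 to -0.13) and 0.36 in U87 (from 0.25 to 0.49). CDKN2C, another inhibitor of these kinases, and CCND2 had 0 reads in all 4 libraries.

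The remaining 2 genes past 2-fold came from different lists. IDH2, the mitochondrial counterpart of IDH1, had an FPKM of 13.3 in Control and 4.37 in Bru of U251, and of 7.98 and 4.96 in those of U87. Its log2 ratio was -1.58 in U251 (interval from -1.82 to -1.39) and -0.68 in U87 (from -0.92 to -0.45), so that it was lower in Bru in both lines, as was IDH1. The other 13 genes of its list, on isocitrate and 2-oxoglutarate, were within 2-fold, and the list's medians were -0.12 and -0.01. ASF1B, a histone chaperone of dividing cells in the list of ATRX partners, had 53.3 and 23.6 in U251, a log2 ratio of -1.17, and stood at -0.12 in U87. The medians of that list were -0.08 in U251 and -0.01 in U87. H3F3A, a gene of histone H3.3 in the same list, was at 99.5 and 49.7 in U251, and its near-identical copies make that value uncertain.

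In the other 4 lists 0 genes were past 2-fold in either line. RAS and its regulators had medians of -0.05 and -0.04, with 8 genes below 0 and 8 above in U251. Negative regulators of the pathway, as NF1 is, lay on both sides of 0 in U251. RASA3 was at -0.71 and SPRED2 at -0.62, while RASA1 was at 0.16 and RASAL2 at 0.33. Methionine salvage and polyamines had medians of 0.08 and 0.02. In that list ODC1, the entry enzyme of polyamine synthesis, had an FPKM of 59.8 and 112 in Control and Bru of U251, a log2 ratio of 0.91, and 127 and 126 in U87. PRMT5, the arginine methyltransferase inhibited by the substrate of MTAP, had 12.4 and 22.0 in U251, a log2 ratio of 0.82, and 9.64 and 12.0 in U87, a log2 ratio of 0.31. Telomerase and shelterin had medians of 0.23 and 0.002, with NHP2 at 0.69 and GAR1 at 0.44 in U251, both proteins of the telomerase and small nucleolar particles. Repair of alkylation damage, where MGMT acts, had medians of -0.04 and -0.02, with ALKBH1 at 0.81 in U251 and POLB at 0.75 in U251 and 0.52 in U87.

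Markers of the labelled cell type were read as a check. VIM and CD44, both common in GBM lines, had an FPKM of at least 94.5 in all 4 libraries, and VIM reached 701. NES was at 125 and 50.6 in U251 and at 1.46 and 0.569 in U87. SOX2, a stem cell factor, was at 129 and 91.2 in U251 and had 0 and 2 reads in U87. SOX9 was at 70.8 and 51.4 in U251 and at 16.9 and 18.0 in U87, and SLC1A3 was between 2.30 and 4.74 in all libraries. The other 6 of the 12 markers did not pass the filter. Among them GFAP, the astrocyte filament, was at 2.42 or less, OLIG2 reached 1.05 and CHI3L1 0.714, both in U87, and S100B, OLIG1 and AQP4 had at most 9, 2 and 2 reads. Of 12 markers of other cell types, KRT18 (0.357 to 14.3) and SYT1 (1.73 to 6.02) passed the filter. The other 10 had an FPKM of at most 0.506, with 110 and 87 reads of MBP and 70 and 24 of PECAM1 in U87, and MOG was at 0 in all 4 libraries.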

How the data were processed

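The values deposited by the authors are FPKM per gene in 4 libraries, with the gene lengths behind them. The NEB Next Ultra kit and paired ends were used. The submitters' processing notes name HISAT2 2.0.5, StringTie 1.3.3b, featureCounts 1.5.0-p3 and DESeq2 1.16.1 without their roles, and the build hg18. The gene IDs, coordinates and merged exon lengths of all 58735 genes are instead those of GENCODE release 29 on GRCh38, which gave the positions and overlaps printed here. How reads shared by near-identical copies were counted is not given in the sources used here.

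In each library the products of FPKM and gene length were whole multiples of 1 step for 100% of the values above 0, at a tolerance of 0.01 reads, and gave back the reads and the library sizes inside the FPKM. These sizes were 20974002 and 18533374 for Control and Bru of U251, and 18070193 and 17406238 for those of U87. A gene of 1 kb with 3 reads then has an FPKM of 0.143 to 0.172. The library sizes are not the totals of reads on genes. Relative to those totals they were larger in Bru than in Control in both lines. Ratios of Bru to Control were therefore lower than they would be on read totals, and no ratio was scaled to read totals. The log2 ratios were computed on FPKM + 0.1, which understates the change of low genes, and genes whose mean FPKM was under 1 were left out. A log2 ratio past 1 in either direction was counted as a 2-fold difference. Intervals of a ratio are Clopper-Pearson intervals of a gene's share of reads in a pair of libraries, without the added 0.1, and those of a level are Poisson intervals. No p-value was computed, since each condition has 1 library.

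The 9 genes, the lists and the alternatives were chosen with earlier results of these data known. Named genes are the 9, the protein-coding genes from RPS6 to CAAP1 that the results turn on, at most 5 genes past 2-fold of each list or else the 2 with the largest mean absolute log2 ratio over both lines, and for each detected gene the protein-coding gene with the smallest Euclidean distance of log2(FPKM + 0.1) over the 4 libraries. E2F2, H3F3A, CDK4, CDK6, CDKN2C, CCND2, RASA1, RASAL2, the neighbours of genes on other chromosomes and the noncoding genes were named after their values were seen. The alternatives were other pseudocounts, scalings, filters on low values, detection limits and window sizes. Python 3.11.15, pandas 2.3.3 and scipy 1.17.1 were used, and the scripts were tested on simulated data.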

Additional observations from a re-analysis of the deposited data

Results flagged for a closer look

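CDKN1A had log2 ratios of Bru to Control on opposite sides of 0 in the lines, with counting intervals that excluded 0 in both, and was past 2-fold in U251. The ratio was -1.48 in U251 and 0.66 in U87, so that the U87 value minus the U251 value was 2.13. Each value comes from 1 Control and 1 Bru library, and the difference between the lines was not tested.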

How the results depend on the processing

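Each condition of a line has 1 library, so that no library could be left out of a ratio. A fit with the line as a block would leave 1 residual degree of freedom and was not run. The counts of genes past 2-fold depended on the treatment of low values. In U251 the 1140 genes became 616 with a pseudocount of 1, 4963 without a filter, 473 with a minimum mean FPKM of 5 and 700 among protein-coding genes. In U87 the 432 genes became 190, 4335, 83 and 96 under the same settings, and the 96 split into 32 higher and 64 lower in Bru. Between the lines the 3942 genes in Control became 10540 without a filter and 1721 with a minimum of 5, and the 3786 genes in Bru became 10566 and 1633. Scaled to the 75th percentile, the U87 counts were 317 higher and 141 lower, or 69.2% higher against 57.6%. With 5 neighbours on each side in place of 10, 60% of those of IDH1 were at or under 3 reads, against 35%, those of MGMT went from 20% to 40% and those of RB1 from 10% to 20%. Those of CDKN2A went from 45% to 40%, those of CDKN2B from 45% to 30% and those of MTAP from 55% to 70%. At that window CDKN2A and CDKN2B thus lay below IDH1. At 10 reads those of ATRX went from 25% to 40%. For counts and runs, other settings stayed within 1.5 times the value reported.

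Of the values of single genes, 115 under other settings lay within the counting interval of the ratio and 23 lay outside it, and 0 of those past 2-fold changed sign. Of the 23, 10 were those of MTAP between the lines, whose log2 ratio depends on the added constant because U87 had 0 reads. RB1 stayed past 2-fold between the lines under each pseudocount and scaling, from -1.51 to -1.33 in Control and from -1.33 to -1.10 in Bru. Signs of ratios near 0 depended on the scaling, and ATRX in U251 went from -0.02 to 0.03 with the 75th percentile. The median over all genes of U87 against U251 in Bru was -0.12 in TPM and 0.10 with that percentile. The runs of 25 genes in U87 and 3 in U251 had the same length at 10 reads, at an FPKM under 0.1 and at 0 reads, the last of which was chosen after the data were seen. Depth limits TERT most, at 52 to 69 reads a library.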

Other observations

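The following were chosen after the values were seen and are given as values. CDKN2C (chr1:50960745-50974633), a related inhibitor gene with 0 reads in all 4 libraries, lies next to FAF1 (chr1:50437028-50960263), which encodes a binding partner of the FAS receptor and also had 0 reads in all 4, as had C1orf185 beyond CDKN2C. RNF11, the next gene, had an FPKM of 57.2 and 38.1 in Control and Bru of U251 and of 41.3 and 31.9 in those of U87. BEND5, on the other side, had 77 and 33 reads in U251 and 0 in both U87 libraries.

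Runs of consecutive protein-coding genes with at most 3 reads in both libraries of a line were counted over the genome. U87 had 3032 such runs, and 5 of them held at least 3 genes expressed in U251. The run around CDKN2A ranked 3 by that number, with 5 expressed genes of 25. The other 4 lay on chromosome 19 and held mostly zinc finger genes, the longest from ZFP14 to WDR87 with 31 genes, of which 27 are named as zinc finger genes and 15 were expressed in U251. U251 had 2979 runs, and 1 of them held at least 3 genes expressed in U87, from TAGLN3 to BTLA on chromosome 3, with 3 of 7 genes.

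The protein-coding gene closest in level over the 4 libraries was SOX21 for MTAP, at a Euclidean distance of 0.213 on the log2 scale, with an FPKM of 12.4 and 11.7 in U251 and 0 in U87. It was PLAA for RB1 (0.170), TLR6 for NF1 (0.124), ZFAND4 for TERT (0.180), EHMT2 for ATRX (0.117) and GNA12 for IDH1 (0.225). Within a distance of 0.5 there were 6 genes for MTAP, 46 for RB1, 88 for NF1, 30 for TERT, 165 for ATRX and 65 for IDH1.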
